A study of Homo sapiens with 6 samples.

Results

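The nuclear genes of respiratory chain complexes I to IV were examined in CAL62 cells treated with erianin. The genes were taken as every protein-coding symbol that starts with NDUFA, NDUFB, NDUFC, NDUFS or NDUFV and a number, is SDHA, SDHB, SDHC or SDHD, starts with UQCR, or starts with COX and a number from 4 to 8, with readthrough symbols left out. The rule used names only and no measured value. It matched 68 symbols, of which 64 had reads in at least 1 library, out of 39168 gene identifiers in the count table. These 64 genes comprised 37 of complex I, 3 of complex II, 8 of complex III and 16 of complex IV. COX7B2 was listed at 0 in all libraries, and NDUFB8, SDHD and UQCR11 were not analysed here. NDUFA4 was counted with complex I because of its symbol, although RefSeq lists it as COXFA4 and its protein is found in complex IV. Its paralog NDUFA4L2 was also counted with complex I because of its symbol alone.

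CAL62 is an established cell line from an anaplastic thyroid carcinoma, and the labels give all samples as wild type. RNA sequencing compared 3 libraries of cells exposed to 50 nM erianin, a bibenzyl compound from Dendrobium orchids, with 3 libraries of cells exposed to the solvent DMSO, all taken at 48 h. The labels speak of replicate experiments but do not say whether the libraries came from separate cultures, so p-values measure the spread between these libraries. The comparison asked which of the genes differed in RNA level between erianin and DMSO.

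The respiratory chain is a series of protein complexes in the inner mitochondrial membrane that pass electrons from NADH and succinate to oxygen. Complex I takes electrons from NADH, complex II takes them from succinate, complex III passes them from ubiquinol to cytochrome c, and complex IV passes them to oxygen. Complexes I, III and IV pump protons and hold subunits encoded in mitochondrial DNA, whereas complex II is encoded in the nucleus alone. The genes described here supply the nuclear subunits, some of which hold the redox centres while many others are accessory subunits needed for assembly and stability.

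Reads counted on named genes ranged from 25776301 to 34107727 per library. DMSO replicate 3 stood apart from the rest. Its chi-square per gene against DMSO replicates 1 and 2 was 94.3 and 107, whereas the value was 4.43 between DMSO replicates 1 and 2 and 3.82 to 4.82 among the erianin libraries. For this reason the counts of called genes over the whole set are given with all 6 libraries and again without DMSO replicate 3. Single genes are given in both fits in some cases only. The cell line markers PAX8 (105 to 150 TPM) and KRT18 (473 to 673 TPM) were present in all 6 libraries, while the thyroid differentiation genes TSHR and NKX2-1 were listed at 0 and TG and SLC5A5 reached at most 0.275 TPM. Leukocyte and endothelial markers were at or near 0, with a highest value of 0.290 TPM for CD68.

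Levels between genes were compared in TPM, which is scaled by gene length. Of the 64 genes, 30 had a mean over the 6 libraries of at least 100 TPM, 27 lay between 1 and 100 TPM and 7 lay under 1 TPM. COX8A, the smallest subunit of complex IV, had the highest level, at 1690, 1658 and 445 TPM in DMSO replicates 1, 2 and 3 and 1459, 1412 and 1620 TPM in the erianin replicates. DMSO replicate 3 held far less than any other library. NDUFA8, an accessory subunit of complex I on the side of the intermembrane space, followed with a mean of 686 TPM over 6 libraries. NDUFB7 (648 TPM), COX6B1 (639 TPM) and NDUFS5 (538 TPM), which also face the intermembrane space, came next, and the ranges of NDUFA8, NDUFB7 and COX6B1 over the libraries overlapped.

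In complex II, SDHB, the iron-sulfur subunit, had a mean of 143 TPM and SDHA, the flavoprotein that oxidises succinate, a mean of 104 TPM, while the membrane anchor SDHC had 21.6 TPM. In complex III, the hinge protein UQCRH (373 TPM) and the small subunit UQCR10 (363 TPM) had the highest means and overlapped, followed by UQCRC1 (263 TPM), a core protein of the complex. After COX8A and COX6B1, the highest mean in complex IV was that of COX7C, a small membrane subunit, at 362 TPM. The levels of the genes in each library are shown in the plot of TPM by complex.

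**Figure D1:**
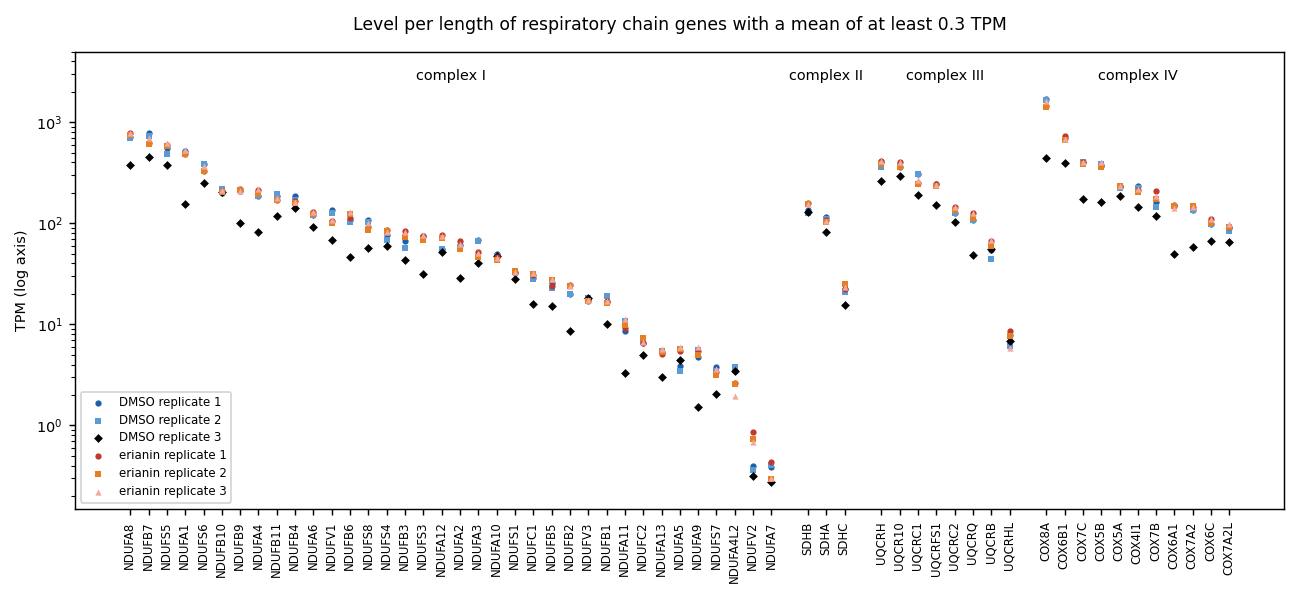
Level in TPM (log axis) of genes with a mean of at least 0.3 TPM, by complex and in order of the mean. Each point is 1 library and points at 0 are not drawn. COX8A is the highest gene, and the black diamonds of DMSO replicate 3 lie under the other libraries for most genes.

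Isoforms used in muscle, lung or testis were nearly silent, and the muscle markers MYH7, ACTC1 and CKM reached at most 0.081, 0.503 and 1.42 TPM. COX4I2, COX6A2, COX6B2, COX7A1 and COX8C had between 0 and 7 reads in a library, and none passed the filter on low counts. A count of 0 in a library allows a level of up to 0.088 to 0.116 CPM, the reads scaled to the number counted in the library, a limit of 3 reads that covers counting error only. COX7A1, the heart and skeletal muscle form of subunit VIIa, had 0, 3 and 1 reads in the DMSO libraries and 4, 7 and 1 reads with erianin, and the groups overlapped. Their ubiquitous counterparts COX4I1, COX6A1, COX6B1, COX7A2 and COX8A had means of 128 to 1381 TPM.

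Few reads were counted on some complex I subunits that are used in all tissues. NDUFV2, a core iron-sulfur subunit, had 9, 11 and 10 reads in the DMSO libraries and 25, 22 and 20 reads in the erianin libraries. Its processed pseudogene NDUFV2P1 held 432 reads over the 6 libraries, 81.7% of the reads of the pair, and 28.4% of the exon bases of NDUFV2 lie in another gene on the same strand. NDUFA7 had 5 to 7 reads in each library, with 32.3% of its exon bases shared with another gene on the same strand. Counting can place reads of such genes elsewhere or nowhere, so their levels and differences are uncertain. The pseudogenes of SDHA held 6653 reads, or 7.07% of the reads of SDHA and its copies. UQCRHL, an intronless copy of UQCRH, had 65 to 94 reads in a library, and COX8A shares 34.5% of its exon bases with an overlapping gene on the same strand. Of 129 pseudogenes named after the genes, 107 had a row in the count table and most of these were listed at 0.

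With all 6 libraries, 2 of the 58 tested genes were lower with erianin and 0 were higher by edgeR's quasi-likelihood test at a Benjamini-Hochberg adjusted p under 0.05, taken over all 12821 genes tested. Among all genes tested, 7.69% were called lower and 7.22% higher, so the share of genes called was under that of the background in both directions. Both genes, NDUFA4L2 and NDUFA10, were counted with complex I, NDUFA4L2 by its symbol alone. In complex II 0 of 3 tested genes were called, in complex III 0 of 8 and in complex IV 0 of 11. The other 6 of the 64 genes did not pass the filter on low counts. At an unadjusted p under 0.05, 7 genes were lower and 4 were higher. The share of all genes at that threshold was not counted, so these counts have no background beside them. DESeq2 called 4 genes lower, against 9.4% of all genes, and 1 higher, against 8.37%. The median log2 fold change, erianin over DMSO, was 0.06 over the 58 genes and 0.00 over all genes tested, with 35 positive and 23 negative values among the 58.

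NDUFA4L2, a paralog of NDUFA4 known as a hypoxia-inducible gene, was measured at 3.57, 3.88 and 3.85 CPM in the DMSO libraries and at 2.43, 2.40 and 1.77 CPM in the erianin libraries. All erianin values lay under all DMSO values, and DMSO replicate 3 lay with the other DMSO libraries. The log2 fold change was -0.78 ± 0.18 (SE), with an edgeR adjusted p of 0.027 that passed the test. It was the only gene of the 64 called a DEG, which asks also for an absolute log2 fold change over 0.5 and was met downwards by 3.36% of all genes and upwards by 5.37%. NDUFA4L2 lies at chr12:57234903-57240715 on the minus strand (GRCh38, GENCODE release 29) and is a low gene, with 62 to 126 reads in a library.

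NDUFA10, an accessory subunit of the complex I membrane arm, was measured at 161.1, 152.1 and 165.8 CPM with DMSO and at 135.5, 127.7 and 128.0 CPM with erianin. The groups did not overlap, and DMSO replicate 3 was the highest of the 6 libraries. Its log2 fold change was -0.29 ± 0.07 (SE), with an edgeR adjusted p of 0.0306. The gene lies at chr2:239892450-240025402 on the minus strand. Both calls were lost when any library other than DMSO replicate 3 was left out, with edgeR adjusted p from 0.0622 to 0.109 for NDUFA4L2 and from 0.057 to 0.152 for NDUFA10, and both held without DMSO replicate 3.

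Several genes missed the threshold although their groups did not overlap. NDUFA12, an accessory subunit of the matrix arm, had 44.3, 43.9 and 44.9 CPM with DMSO and 55, 52.1 and 53 CPM with erianin, a log2 fold change of 0.27 ± 0.07 (SE) with an edgeR adjusted p of 0.0518. It was the gene that DESeq2 called higher, with an adjusted p of 0.0156. The genes that DESeq2 called lower included NDUFV3, a small accessory subunit of the NADH-oxidising module (adjusted p = 0.0309), NDUFA4L2 and NDUFA10. For NDUFV2, on its 9 to 25 reads, the log2 fold change was 0.91 ± 0.29 (SE) with an edgeR adjusted p of 0.0752. In all, 7 genes had every erianin value under every DMSO value and 5 had every erianin value above, while 19.3% and 19.5% of all genes tested did so.

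The promoters of genes at both ends of the fold changes in complexes I, III and IV are shown because the genes of a complex are transcribed from separate promoters. The rule took the lowest and the highest log2 fold change in each complex with all 6 libraries. NDUFA10, called lower, was added after its values were seen, and no other gene shown was called in that fit. UQCRQ and COX7A2 were highest at 0.30 and 0.23 but stood at 0.03 and -0.06 without DMSO replicate 3. NDUFV2, UQCRC1 and COX4I1 kept their sign. NDUFA4L2, the lowest of complex I, was not matched. The sequences are the 250 bases before the transcription start from RefSeq (GRCh38.p14), 5′ to 3′ on the strand of the gene, with matches to the searched motifs in capitals.
NDUFV2 (chr18:9102449-9102698, plus strand): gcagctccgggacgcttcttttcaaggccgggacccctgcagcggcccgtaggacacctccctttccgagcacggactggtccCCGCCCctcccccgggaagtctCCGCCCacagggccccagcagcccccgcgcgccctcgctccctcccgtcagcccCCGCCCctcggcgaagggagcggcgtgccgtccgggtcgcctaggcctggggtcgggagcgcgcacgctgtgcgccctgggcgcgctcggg
UQCRC1 (chr3:48609647-48609896, minus strand): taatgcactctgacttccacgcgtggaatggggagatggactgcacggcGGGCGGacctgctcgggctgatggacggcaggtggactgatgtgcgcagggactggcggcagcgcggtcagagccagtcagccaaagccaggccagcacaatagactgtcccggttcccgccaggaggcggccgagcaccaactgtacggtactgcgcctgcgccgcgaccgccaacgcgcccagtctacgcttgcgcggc
UQCRQ (chr5:132866392-132866641, plus strand): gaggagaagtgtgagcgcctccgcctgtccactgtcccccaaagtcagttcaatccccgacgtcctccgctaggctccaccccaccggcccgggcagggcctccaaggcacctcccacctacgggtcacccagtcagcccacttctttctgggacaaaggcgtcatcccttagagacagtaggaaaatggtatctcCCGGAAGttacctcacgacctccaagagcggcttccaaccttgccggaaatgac
COX4I1 (chr16:85799445-85799694, plus strand): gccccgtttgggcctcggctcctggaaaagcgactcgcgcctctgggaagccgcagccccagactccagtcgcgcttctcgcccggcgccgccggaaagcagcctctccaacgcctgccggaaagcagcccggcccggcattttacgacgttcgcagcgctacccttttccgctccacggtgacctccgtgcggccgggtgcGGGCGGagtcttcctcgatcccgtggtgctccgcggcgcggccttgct
COX7A2 (chr6:75250299-75250548, minus strand): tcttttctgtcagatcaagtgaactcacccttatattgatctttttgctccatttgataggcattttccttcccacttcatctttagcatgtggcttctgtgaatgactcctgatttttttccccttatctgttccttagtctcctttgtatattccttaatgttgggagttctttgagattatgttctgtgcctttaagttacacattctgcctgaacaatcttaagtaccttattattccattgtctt
NDUFA10 (chr2:240025343-240025592, minus strand): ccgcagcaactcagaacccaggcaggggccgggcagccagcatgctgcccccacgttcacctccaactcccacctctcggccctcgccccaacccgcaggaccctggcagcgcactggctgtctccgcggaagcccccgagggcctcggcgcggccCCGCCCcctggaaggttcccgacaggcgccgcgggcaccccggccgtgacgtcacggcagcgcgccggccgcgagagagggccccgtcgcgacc

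The motifs were searched on both strands from 250 bases before to 50 bases after the first listed start of each gene, for 52 of the 64 genes and 27305 genes in all. GGGCGG, bound by SP1, was in 30 of the 52 promoters (57.7%) and in 44.6% of all. CCGGAAG, bound by ETS factors such as GABP, was in 13 (25%) and in 10.7% of all. GCATGCG, the short form of the NRF1 motif, was in 8 (15.4%) and in 4.13% of all, and the full NRF1 motif, which contains it, in 2 (3.85%) and in 1.36% of all. AAGATGGC, bound by YY1, was in 8 promoters (15.4%) and in 3.03% of all. In the sequences shown, NDUFV2 holds GGGCGG at 3 places on the opposite strand, UQCRC1, COX4I1 and NDUFA10 at 1 place each, UQCRQ holds CCGGAAG, and COX7A2 holds none of the motifs. A match describes the letters only.

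In DMSO replicate 3 the respiratory chain genes were low as a set. It lay under DMSO replicates 1 and 2 in 49 of the 58 tested genes, against 43% of all genes tested, and was the lowest of the 6 libraries in 45, against 29% of all genes. The log2 difference from the mean of DMSO replicates 1 and 2 had a median of -0.53 over the 58 genes and of 0.01 over all genes. The genes took 0.519% of the reads in this library (95% Wilson interval 0.517% to 0.522%, counting error only) and 0.652% to 0.704% in the other libraries. By complex the median was -0.59 in complex I, -0.34 in complex II, -0.30 in complex III and -0.65 in complex IV, below 0 in each.

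The single genes differed widely in this library. COX8A was lowest, at 40.7 CPM against 141.9 and 138.3 CPM in the other DMSO libraries and 107.6 to 120.0 CPM with erianin. NDUFA9, an accessory subunit of complex I, stood at 3.85 CPM against 11.2 and 12.8 CPM, NDUFA1 at 21.5 CPM against 66.3 and 63.1 CPM, and COX6A1 at 17 CPM against 47.1 and 46.8 CPM. NDUFA5 lay furthest above, at 14.6 CPM against 11.8 and 10.4 CPM. A few genes did not share the drop, among them SDHB, at 129.7 CPM against 124.6 and 116.4 CPM, and NDUFB10, at 134.1 CPM against 120.0 and 128.6 CPM. Between DMSO replicates 1 and 2 the log2 difference over genes above 10 CPM was at most 0.31. The spread of DMSO replicate 3 entered every test with all 6 libraries: the median SE of the log2 fold change over the genes was 0.16 with it and 0.05 without it.

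**Figure D2:**
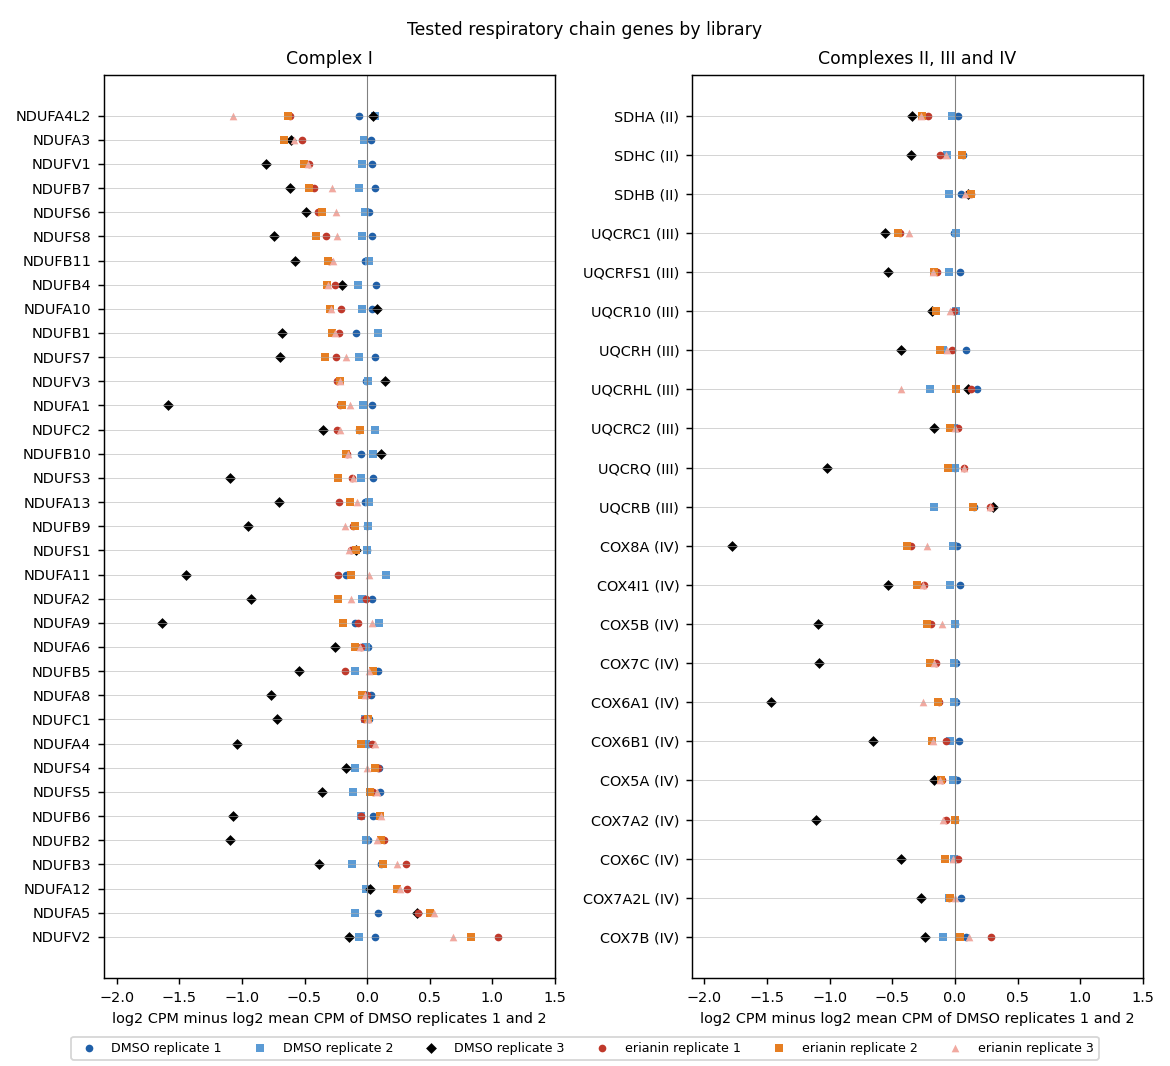
Level of tested genes in each library as log2 CPM minus the log2 of the mean CPM of DMSO replicates 1 and 2, for complex I (left) and complexes II to IV (right), in order of the fold change without DMSO replicate 3. Black diamonds are DMSO replicate 3, down to -1.78 for COX8A, and the red and orange points are the erianin libraries.

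Transcript length and GC content moved with the drop. Over the 58 genes Spearman's rho of the difference of DMSO replicate 3 was 0.27 with transcript length and -0.24 with GC content, and over 12686 genes with a transcript it was 0.36 and -0.56. These are descriptions across genes of the same libraries, which are not independent replicates. The transcripts of the genes were short, with a median of 1266 bases against 3406 bases over all genes tested. Their median GC content was 47.6%, slightly under the 49.3% over all genes tested. The difference had a median of -0.66 over the 22 genes with a transcript under 1000 bases and of -0.43 over the other 36, against -0.45 and 0.02 over all genes tested of the same length. The part of length and GC content in the drop was not tested.

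Without DMSO replicate 3, 28 of the 58 genes were lower with erianin and 6 were higher by edgeR's test, against 27.7% and 27.5% of the 13053 genes then tested. The 28 genes are 48.3% of those tested and the 6 genes 10.3%. The median log2 fold change was -0.13 over the genes and 0.02 over all genes, with 45 negative and 13 positive values. The differences were small, with a median of -0.26 over the genes called lower and 0.23 over those called higher, and 3 genes were DEGs, all lower, against 6.11% of all genes called DEGs downwards and 11.4% upwards. In 31 genes all erianin values lay under DMSO replicates 1 and 2 and in 6 all lay above, against 33.8% and 35.2% of all genes. The fit rests on 2 DMSO libraries. Between the fit with all libraries and this one, 22 genes had fold changes of opposite sign.

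**Figure D3:**
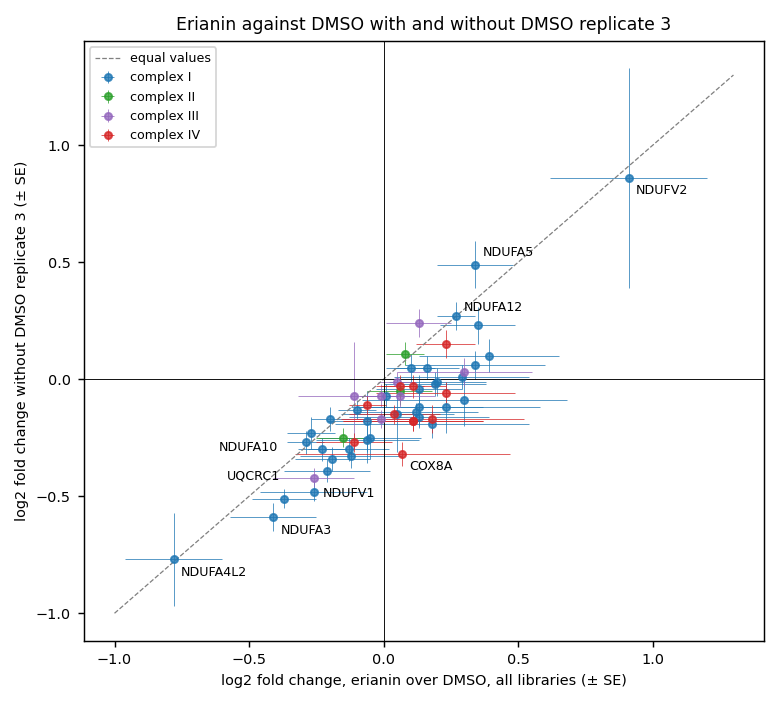
Log2 fold change, erianin over DMSO, with all 6 libraries (horizontal axis) and without DMSO replicate 3 (vertical axis) for the 58 tested genes, with bars of 1 SE. Most genes lie under the dashed line of equal values, and NDUFA4L2 is lowest on both axes, at -0.78 and -0.77.

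In complex I, 18 of the 36 tested genes (50%) were lower and 3 (8.33%) were higher without DMSO replicate 3. The shares of all genes were 27.7% and 27.5%. Some of the core subunits carry the redox centres. Among them NDUFV1, which binds NADH and the flavin, had 513.8 and 485.1 CPM in DMSO replicates 1 and 2 and 362.3, 352.4 and 360.8 CPM with erianin. These groups did not overlap, and DMSO replicate 3 lay under them all at 285.2 CPM. The log2 fold change of NDUFV1 was -0.48 ± 0.04 (SE, edgeR adjusted p = 5.98e-12) without DMSO replicate 3 and -0.26 ± 0.20 (SE, edgeR adjusted p = 0.435) with it. The core subunits NDUFS8 (-0.33) and NDUFS3 (-0.16) were lower by less. NDUFV2 was not called, with a log2 fold change of 0.86 ± 0.47 (SE, edgeR adjusted p = 0.121).

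Of the 29 tested accessory genes of complex I, 12 (41.4%) were lower and 3 (10.3%) higher without DMSO replicate 3. The shares of all genes were 27.7% and 27.5%. NDUFA3, a small membrane arm subunit, had 78.5 and 75.6 CPM in DMSO replicates 1 and 2 against 53.7, 48.7 and 51.4 CPM with erianin. It was a DEG in this fit, with a log2 fold change of -0.59 ± 0.06 (SE, edgeR adjusted p = 1.12e-10). With all 6 libraries it was not called, at -0.41 ± 0.16 (SE, edgeR adjusted p = 0.135). DMSO replicate 3, at 50.5 CPM, lay among the erianin values. NDUFA4L2 (-0.77), counted with the accessory genes by its symbol alone, was the other DEG of this list. NDUFB7 (-0.39) and NDUFS6 (-0.34), the latter with a zinc site, were among the lower genes. NDUFA5 (0.49), NDUFA12 (0.27) and NDUFB3 (0.23) were higher. NDUFA5 had 11.8 and 10.4 CPM in DMSO replicates 1 and 2, 14.6 CPM in DMSO replicate 3, and 14.7, 15.7 and 16.1 CPM with erianin, so that DMSO replicate 3 lay close under the erianin values.

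Complex II was split without DMSO replicate 3, while none of its genes was called with all 6 libraries. SDHA had 525.9, 510.4 and 409.3 CPM with DMSO and 446.9, 431.3 and 428.6 CPM with erianin. Without DMSO replicate 3 it was lower, with a log2 fold change of -0.25 ± 0.04 (SE, edgeR adjusted p = 1.86e-06). With all 6 libraries the value was -0.15 ± 0.10 (SE, edgeR adjusted p = 0.383). Without DMSO replicate 3, SDHB was higher by a small amount, 0.11 ± 0.05 (SE, edgeR adjusted p = 0.0449), and SDHC was not called, at -0.05 ± 0.06 (SE). With all 6 libraries SDHB stood at 0.08 ± 0.07 (SE, edgeR adjusted p = 0.521).

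In complex III, 2 of the 8 genes (25%) were lower and 1 (12.5%) was higher without DMSO replicate 3. Among all genes 27.7% were lower and 27.5% higher, so the share called lower was close to that of all genes. UQCRC1 had 478.6 and 482.3 CPM in DMSO replicates 1 and 2, 325.8 CPM in DMSO replicate 3, and 354.8, 350.2 and 372.7 CPM with erianin. Its log2 fold change was -0.42 ± 0.04 (SE, edgeR adjusted p = 1.14e-10) without DMSO replicate 3 and -0.26 ± 0.15 (SE, edgeR adjusted p = 0.285) with all libraries. The Rieske iron-sulfur protein UQCRFS1 was lower at -0.17, and UQCRB, a small subunit near the quinone site, was higher at 0.24, although its erianin values of 136.7 to 150.2 CPM overlapped the 136.9 and 110.2 CPM of DMSO replicates 1 and 2. UQCRC2, the partner of UQCRC1, had a log2 fold change of -0.01 ± 0.04 (SE) and was not called.

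In complex IV, 7 of the 11 tested genes (63.6%) were lower and 1 (9.09%) was higher without DMSO replicate 3. The shares of all genes were 27.7% and 27.5%. COX4I1, a regulatory subunit, had the most reads of the 64 genes, with 671.8 and 637.4 CPM in DMSO replicates 1 and 2, 451.7 CPM in DMSO replicate 3, and 550.6, 529.8 and 549.8 CPM with erianin. The erianin values lay between those of DMSO replicate 3 and the other DMSO libraries, and the log2 fold change was -0.27 ± 0.04 (SE, edgeR adjusted p = 6.61e-07) without DMSO replicate 3 and -0.11 ± 0.14 (SE) with it. COX8A turned its sign, from 0.07 ± 0.40 (SE) with all libraries to -0.32 ± 0.05 (SE, edgeR adjusted p = 9.5e-07) without DMSO replicate 3. COX6A1, COX6B1, COX7C and COX5B also had positive values with all libraries and were called lower without it. COX7B was higher at 0.15, with overlapping groups, and COX7A2L, which joins complexes III and IV into supercomplexes, was not called at -0.03 ± 0.05 (SE).

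GC content moved with the differences without DMSO replicate 3 as well. Spearman's rho between log2 fold change and transcript GC content was -0.66 over the 58 genes and -0.45 over all genes, as a description across genes. Of the 14 genes with at least 55% GC, 12 were lower and 0 higher, with a median of -0.31 against -0.19 over all genes of that GC content. Of the 26 genes between 45% and 55%, 13 were lower and 2 higher, with a median of -0.13 against -0.03. Of the 18 genes under 45%, 3 were lower and 4 higher, with a median of -0.01 against 0.23. The share of all genes called in each GC range was not counted, so these called counts have no background beside them. The medians of the genes lay under those of all genes in each range, and the part of GC content in the differences was not tested by these counts.

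**Figure D4:**
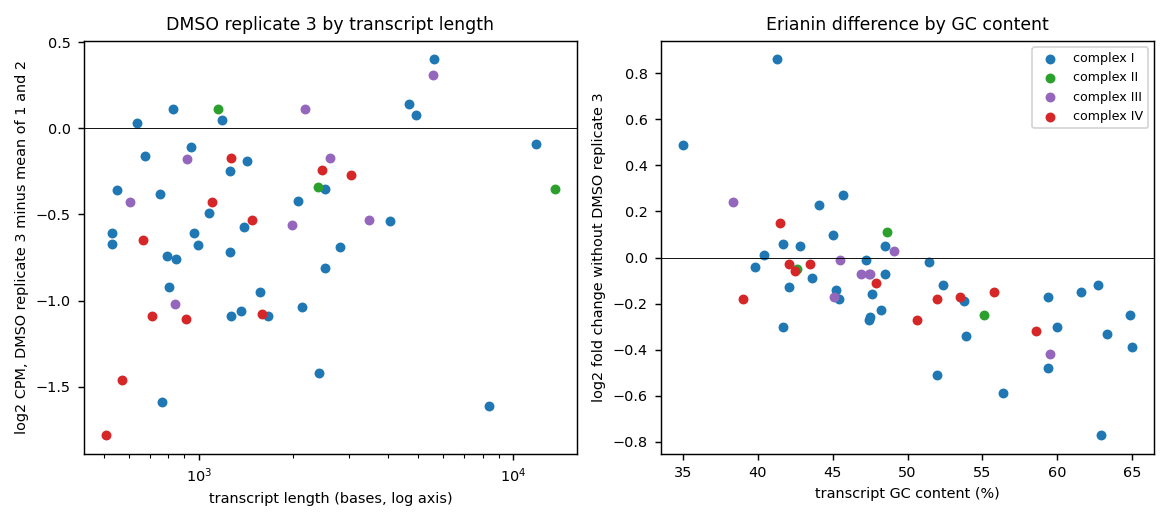
Left, log2 CPM of DMSO replicate 3 minus the mean of DMSO replicates 1 and 2 against transcript length (log axis); right, log2 fold change of erianin over DMSO without DMSO replicate 3 against transcript GC content. Each point is 1 of the 58 tested genes, coloured by complex, and 12 of the 14 genes with at least 55% GC were called lower. The share of all genes of that GC content called lower was not counted.

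When the GC trend of each library was removed, 26 genes were lower and 2 higher without DMSO replicate 3, against 22.8% and 22.4% of all genes. The 26 include 20 of the 28 genes called lower without this step. Among the 8 lost were the core subunits NDUFS7 and NDUFS8, with log2 fold changes of 0.01 and -0.09, and 6 genes were gained, among them COX7A2 (-0.22) and SDHC (-0.21). NDUFA3 (-0.43), NDUFV1 (-0.29) and UQCRC1 (-0.23) stayed lower. Of the 6 genes called higher, NDUFA12 (0.21) and SDHB (0.13) stayed so, while NDUFA5 went to 0.11, NDUFB3 to 0.11, UQCRB to -0.05 and COX7B to -0.05. NDUFA4L2 was the 1 DEG, at -0.53, against 3.41% of all genes called DEGs downwards. With all 6 libraries and the GC trend removed, NDUFA10 alone was called (edgeR adjusted p = 0.019), against 8.61% of all genes lower and 9.15% higher.

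Genes that build or regulate the complexes were listed beside them. Of 47 assembly factors, 41 had reads and were tested. With all 6 libraries 1 (2.44%) was higher and 1 (2.44%) lower by edgeR's test, under the 7.22% and 7.69% of all genes. ACAD9, which acts in complex I assembly, was the lower gene and a DEG, at 77.1, 75 and 77.6 CPM with DMSO and 53.6, 49.7 and 52.7 CPM with erianin, a log2 fold change of -0.56 ± 0.07 (SE, edgeR adjusted p = 0.00504). NDUFAF4, also a complex I assembly factor, was higher at 0.42 ± 0.11 (SE, edgeR adjusted p = 0.0406), but 0 assembly factors were higher with the GC trend removed from all 6 libraries, and without DMSO replicate 3 its value was then 0.03 (edgeR adjusted p = 0.871). For ACAD9, DMSO replicate 3 lay beside the other DMSO libraries. Without DMSO replicate 3, 14 of the 41 assembly factors were lower and 3 higher, against 27.7% and 27.5% of all genes, with a median of -0.12. The DEGs were ACAD9 (-0.55) and SDHAF4 (-0.57), which acts on complex II. With the GC trend also removed, 18 (43.9%) were lower and 1 (2.44%) higher, against 22.8% and 22.4% of all genes. ACAD9 was then lower at -0.44 and SDHAF4 at -0.70. HIGD2A and SDHAF1, the assembly factors with the highest levels in TPM, were not called in either fit.

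Of 16 transcriptional regulators of respiratory genes, 15 were tested and 0 were called with all 6 libraries by edgeR's test. At an unadjusted p under 0.05 there were 3 higher and 0 lower, again without a share of all genes to compare. DESeq2 called 1 of the 16 higher. Without DMSO replicate 3, 7 (46.7%) were higher and 3 (20%) lower, against 27.5% and 27.7% of all genes. The DEGs were HIF1A (0.70) and GABPA (0.53), a subunit of the ETS factor GABP. The lower regulators were ESRRA (-0.30), POLRMT (-0.22) and TFEB (-0.26). With the GC trend also removed, 4 regulators were higher and 1 lower, against 22.4% and 22.8% of all genes. The lower regulator was TFB1M (-0.34), and ESRRA, POLRMT and TFEB were not called. NRF1 and YY1 were called in neither of these fits. HIF1A was then at 0.37 and still called, while GABPA was not, at 0.19 (edgeR adjusted p = 0.158). In that fit 1 regulator was a DEG, upwards, and it was neither HIF1A nor GABPA. TFAM, which packages and transcribes mitochondrial DNA, had 31.8, 32.4 and 37.3 CPM with DMSO and 40, 43.1 and 46.4 CPM with erianin. Its groups did not overlap, and its log2 fold change was 0.35 ± 0.10 (SE, edgeR adjusted p = 0.0604) with all libraries and 0.42 ± 0.07 (SE, edgeR adjusted p = 4.82e-06) without DMSO replicate 3. That call was lost with the GC trend removed, at 0.14 (edgeR adjusted p = 0.0887). HIF1A, an oxygen-sensitive factor, had 56.5, 51 and 128.5 CPM with DMSO and 93.8, 85.4 and 83.7 CPM with erianin, so DMSO replicate 3 was above all other libraries. PPARGC1A, the coactivator PGC-1alpha, was listed at 0 in 5 of the 6 libraries.

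Of the subunits whose names lie outside the rule, CYC1, cytochrome c1 of complex III, was lower without DMSO replicate 3 (-0.37, edgeR adjusted p = 2.52e-09), and CYCS, cytochrome c, was higher (0.32, edgeR adjusted p = 2.27e-05). With all libraries neither passed, at -0.23 and 0.45. With the GC trend removed and without DMSO replicate 3, CYC1 was lower by less (-0.14, edgeR adjusted p = 0.00319) and the call of CYCS was lost (0.13, edgeR adjusted p = 0.0603). NDUFAB1 was called in neither fit. All 19 genes of the ATP synthase list were listed at 0 in every library, although every cell uses them, so nothing can be said of their level. The 13 mRNAs encoded in mitochondrial DNA were not analysed here.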

How the data were processed

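Total RNA of CAL62 cells was sequenced on the BGISEQ-500 platform. The submitters' processing notes name fastp 0.23.2, STAR 2.7.10, featureCounts 2.0.1 and StringTie 2.2.1 with GRCh38; the annotation and strand setting are not given in the sources used here. The authors deposited raw counts per gene and a table of TPM for the same 6 libraries. The TPM listed add up to 59.1% of the nominal total in DMSO replicate 3 and to 72.6% to 78.3% in the other libraries. Levels in TPM were used as listed, so part of the lower TPM of DMSO replicate 3 can lie in this scale.

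The 26480 of 65807 rows without an identifier (at most 0.00515% of counts) were left out. Counts were tested across all genes with edgeR 4.0.16 in R 4.3.3 (TMM, filterByExpr, glmQLFit and glmQLFTest) without a replicate term, and p-values were adjusted by Benjamini-Hochberg. The SE of a fold change was computed from its F statistic. GC content, length and coordinates came from GENCODE release 29. GC trends were taken out with loess (span 0.5). The genes and lists were chosen with earlier results of these data known. Genes to name were set, per complex, as the 3 highest in TPM, the 2 highest and 2 lowest fold changes and the 3 smallest adjusted p. DEGs, isoforms and genes with copies were added. In each list outside the genes, the 2 highest in TPM and the 3 smallest adjusted p were set. Not every gene so set is named, among them NDUFB2, TFB2M and COX19, and others were named after their values were seen. Deviations of same-numbered libraries from their group means were not correlated (from -0.0329 to 0.0253). DMSO replicate 3 dominates the DMSO deviations, so this check cannot tell whether the libraries were paired. Alternatives were DESeq2 1.42.0, limma 3.58.1 on log2(TPM + 1), other factors, filters and offsets, a replicate block and each library left out. The steps were tested on simulated data. Reads per library ranged from 25776301 to 34107727, so counting error is small except for genes with few reads. The values of certain genes are not reported here.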

Additional observations from a re-analysis of the deposited data

How the results depend on the processing

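With all 6 libraries 2 genes were lower, 0 higher and 1 a DEG, and the median was 0.06. RLE factors and no low-count filter gave these counts too, and the length offset gave 3 lower. Leaving out 1 library gave 0 to 28 lower, 0 to 6 higher, 0 to 3 DEGs downwards and 0 upwards, with a median of -0.13 to 0.15; 28, 6 and 3 were reached without DMSO replicate 3, and 0 lower without any 1 of the other 5 libraries. Upper-quartile factors gave 1 lower and 1 higher, against 5.9% and 9.06% of all genes. At least 10 counts in every library gave 1 higher, and a DEG threshold of 1 gave 0 DEGs. The replicate block, alone, with the length offset or with the GC offset, gave 0 lower and 0 DEGs. The labels do not say whether same-numbered libraries were paired. The GC offset gave 1 lower and 0 DEGs, GC and length offsets 0 DEGs, and the GC offset without DMSO replicate 3 gave 26 lower and 2 higher. DESeq2 gave 4 lower and 1 higher. limma on log2(TPM + 1) gave 1 lower, 3 higher and 0 DEGs downwards, against 2.34% of all genes lower and 17.3% higher. With a pseudocount of 0.1 it gave 1 lower, 3 higher and 1 DEG upwards, and without a filter 0 lower, 3 higher and 0 DEGs. The median over the genes in these limma fits was 0.26 to 0.27 and that of all genes shifted by 0.12 to 0.20. Positive values turned negative and were called lower without DMSO replicate 3 for COX6A1 (-0.17), COX6B1 (-0.15), COX7C (-0.18) and COX8A (-0.32), whose highest values with 1 library left out were 0.38, 0.16, 0.27 and 0.32, and for COX5B (-0.18), NDUFA1 (-0.19), NDUFB9 (-0.14) and NDUFS3 (-0.16). With the GC offset added and DMSO replicate 3 left out, COX7C (-0.44), COX8A (-0.14), NDUFB9 (-0.21) and NDUFS3 (-0.16) were again called lower. COX6C (-0.21), COX7A2 (-0.22), COX7A2L (-0.16), SDHC (-0.21), NDUFA4 (-0.21) and NDUFB5 (-0.28), also positive with all 6 libraries, were called lower there but not without the offset. In another 44 of 564 fits of named genes the sign changed with no call in either. The cause was not tested. Depth limits NDUFV2, NDUFA7 and the tissue isoforms.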
